A study of Homo sapiens with 6 samples.

Results

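Rows for 9 genes of pericellular proteolysis were read from the RNA sequencing tables of DU145 cells, chosen by their symbols among the 23062 identifiers that each table lists. They were PLAU, PLAUR, PLAT, SERPINE2, MMP14, TIMP1, TIMP2, TIMP3 and ST14, and all 9 were found. The DU145 line was derived from a brain metastasis of human prostate cancer, grows without androgen, and is labelled WT by genotype. All 6 cultures were kept in MEM medium with serum and antibiotics. The 3 control cultures received medium and the 3 TAX cultures received taraxasterol, a pentacyclic triterpene of dandelion, at its IC50 dose, each for 48 h. TAX was dissolved in DMSO, and whether control cells also received DMSO is not stated, so TAX and its solvent cannot be told apart. All cultures are of 1 cell line, and no label says whether they were grown apart, so the p values below measure only the spread between these samples. The plan compared the genes between TAX-treated and control cells, since the study asked which genes change in DU145 cells after TAX treatment.

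These genes act at the cell surface, where tumor cells clear a path through the matrix. PLAU encodes urokinase, a serine protease that binds its receptor uPAR (PLAUR) and cuts plasminogen to plasmin, as tissue plasminogen activator (PLAT) also does, and protease nexin-1 (SERPINE2) inhibits both activators. MMP14 encodes the membrane-anchored collagenase MT1-MMP, which activates pro-MMP2 in a complex with TIMP2. The TIMPs inhibit metalloproteinases, TIMP1 being weak against the membrane-type enzymes and TIMP3 also acting on ADAM proteases. ST14 encodes matriptase, an epithelial membrane serine protease that activates pro-HGF and pro-urokinase.

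The promoters of the 4 genes with the largest increases in mean log2 value are shown so that the gene starts behind these values can be compared. They are reference sequence from RefSeq (GRCh38.p14), whose promoter table held 6 of the 9 genes, from 250 bases before the annotated start to 50 bases after it, written 5′ to 3′ on the strand of the gene. Capitals mark matches on either strand to the AP-1 motif TGANTCA, the PEA3 motif AGGAAG and the GC box GGGCGG, while the TATA box TATAAA, found in 11.5% of all promoters of this length, gave no match here. No match overlapped another one. MMP14 lies at chr14:22836335-22836634 on the plus strand, the downstream one of 2 PLAU starts at chr10:73910882-73911181 on the plus strand, PLAUR at chr19:43670120-43670419 on the minus strand and TIMP1 at chrX:47582186-47582485 on the plus strand.
MMP14: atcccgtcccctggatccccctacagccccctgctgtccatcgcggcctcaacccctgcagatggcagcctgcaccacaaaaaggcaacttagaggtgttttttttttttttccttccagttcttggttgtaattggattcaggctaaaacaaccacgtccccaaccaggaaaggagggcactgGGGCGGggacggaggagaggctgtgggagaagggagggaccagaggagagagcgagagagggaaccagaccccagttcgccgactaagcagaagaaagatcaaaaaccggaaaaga
PLAUR: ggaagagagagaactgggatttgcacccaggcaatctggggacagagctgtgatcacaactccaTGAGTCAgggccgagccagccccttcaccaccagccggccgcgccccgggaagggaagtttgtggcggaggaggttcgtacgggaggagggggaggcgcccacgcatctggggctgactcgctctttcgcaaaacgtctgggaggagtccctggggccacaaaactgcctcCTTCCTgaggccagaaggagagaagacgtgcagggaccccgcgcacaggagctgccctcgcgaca
PLAU: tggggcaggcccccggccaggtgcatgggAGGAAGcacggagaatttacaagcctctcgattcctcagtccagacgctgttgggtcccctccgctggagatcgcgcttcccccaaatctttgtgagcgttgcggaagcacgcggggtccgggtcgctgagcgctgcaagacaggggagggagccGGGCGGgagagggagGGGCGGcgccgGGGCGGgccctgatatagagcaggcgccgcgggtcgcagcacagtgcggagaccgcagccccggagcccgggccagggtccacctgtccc
TIMP1: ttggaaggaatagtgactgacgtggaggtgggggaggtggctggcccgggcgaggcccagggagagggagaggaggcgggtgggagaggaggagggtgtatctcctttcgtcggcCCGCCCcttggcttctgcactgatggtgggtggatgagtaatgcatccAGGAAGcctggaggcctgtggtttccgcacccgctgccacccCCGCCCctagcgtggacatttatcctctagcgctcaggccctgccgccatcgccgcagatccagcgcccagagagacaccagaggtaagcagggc

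The MMP14 promoter held 1 GC box, at position -66 from the start, and none of the other motifs. Of the 4 promoters, PLAUR was the one with an AP-1 match, at position -186, a motif found in 7.71% of the 35116 promoters of the same length. PLAUR, PLAU and TIMP1 each held 1 PEA3 match, at positions -15, -221 and -87, against 33.6% of all promoters with at least 1. PLAU held 3 GC boxes between positions -66 and -40, and TIMP1 held GC boxes at -135 and -45, a motif present in 45.0% of all promoters. The other PLAU start, at chr10:73910360-73910659, held no match. The GC content was 55.0% for MMP14, 64.0% for PLAUR, 65.0% for TIMP1 and 70.0% for the PLAU promoter shown.

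The deposited values were taken as FPKM, fragments scaled to transcript length and to the fragments mapped in a library, so that levels can be compared between genes. Summed FPKM was 322483 to 363724 per library and was lowest in control replicate 3, and 3997 to 4798 identifiers were listed at 0. Read counts were not given, so depth is unknown. Pearson's r of log2(FPKM + 1) across the 12359 tested genes, which are not independent replicates, was 0.991 to 0.995 within groups and 0.990 to 0.993 between groups. Epithelial markers were present, with KRT8 at 126 to 173 FPKM, while KLK3 and KLK2 were listed at 0 in all 6 libraries. The summed FPKM of 7 fibroblast markers was 1.95 to 2.15 in control and at most 1.60 in TAX libraries, nearly all from COL1A1, and that of 5 endothelial markers was at most 0.0937. Of 6 leukocyte markers, CD68 held nearly all of the sum, which was 20.4 to 26.9 FPKM in control and 32.8 to 33.9 FPKM in TAX libraries, while PTPRC, which defines leukocytes, was at most 0.0069 FPKM and CD3E was listed at 0. In such bulk RNA, fewer cells with a transcript and less of it per cell cannot be told apart.

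Urokinase was by far the most abundant of the 9 transcripts per length. Values of single libraries are given in the order of the replicate numbers. PLAU measured 331, 335 and 247 FPKM without TAX and 348, 365 and 364 FPKM with TAX, and 0.858% of the tested genes had a higher mean. MMP14 and TIMP2 followed, with means over the 6 libraries of 64.4 and 62.7 FPKM, and then PLAUR and TIMP1, with 44.9 and 44.4 FPKM. SERPINE2 had 9.67 FPKM, near the middle of the tested genes, and ST14 had 3.14 FPKM. The ranges of MMP14 and TIMP2 overlapped, as did those of PLAUR and TIMP1, so the order within these 2 pairs did not exceed the spread. All other neighbours in the order had separate ranges. MMP14, at 43.7 to 82.5 FPKM, also overlapped PLAUR (34.1 to 52.8 FPKM) and TIMP1 (34.8 to 52.1 FPKM), which are not its neighbours. PLAT stayed between 0.142 and 0.315 FPKM, so that PLAU made up over 99.9% of the FPKM of the 2 plasminogen activators in every library. TIMP3 was listed at 0 in all 6 libraries, and since an exact 0 can be a failed estimate, no more is said of it.

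**Figure D1:**
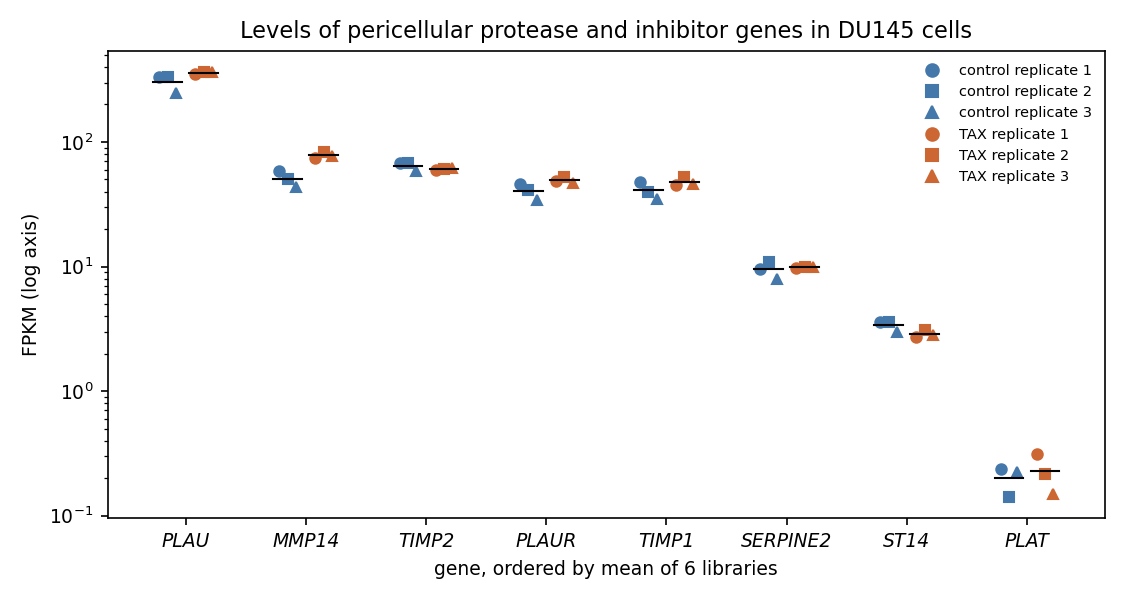
FPKM (log axis) of 8 genes in each of the 6 libraries, with a black line at each group mean; TIMP3, listed at 0, cannot be drawn on this axis. The 3 TAX values lie above the 3 control values for PLAU, MMP14 and PLAUR, and MMP14 lies below TIMP2 in every control library and above it in every TAX library.

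MMP14 rose after TAX treatment. It measured 58.4, 50.3 and 43.7 FPKM without TAX and 74.6, 82.5 and 77.0 FPKM with TAX. All TAX libraries were above all control libraries, with a gap between the groups wider than the range within either. The mean went from 50.8 ± 7.38 to 78.0 ± 4.06 FPKM (SD, n = 3 each), a 1.53-fold rise (log2 fold change 0.62, standard error 0.107, 95% interval 0.38 to 0.85, adjusted p = 0.0397 from limma). Of all tested genes, 0.251% had a larger log2 fold change. MMP14 was 1 of the 7 members that had enough FPKM to be tested and the single one with an adjusted p under 0.05, against 0.477% of all tested genes (39 higher and 20 lower, or 47 and 48 after quantile normalization). By an unadjusted p under 0.05 and 1.5-fold, it was again 1 of 7, against 0.437% of all genes. Its call was not firm. The adjusted p was 0.0411 without control replicate 1, 0.0882 without control replicate 2 and 0.0687 without control replicate 3, and 0.0885, 0.158 and 0.110 without TAX replicates 1, 2 and 3. It was 0.0599 with a filter at 0.1 FPKM and 0.209 with no filter on low values, while the unadjusted p was under 0.05 in all 14 alternatives.

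The receptor and its protease were higher in TAX-treated cells without passing the adjusted test. PLAUR measured 46.2, 41.4 and 34.1 FPKM without TAX and 48.2, 52.8 and 46.7 FPKM with TAX. The groups were separate, though control replicate 1 came close to TAX replicate 3. Its log2 fold change was 0.28 (95% interval 0.037 to 0.53, unadjusted p = 0.0281 and adjusted p = 0.432 from limma). PLAUR and MMP14 were the 2 of 7 tested members with an unadjusted p under 0.05, both higher, against 10.1% of all tested genes (955 higher and 298 lower). The unadjusted p of PLAUR was 0.0722 without control replicate 3 and 0.0974 without TAX replicate 2 in limma. PLAU averaged 304 ± 49.9 FPKM over the controls and 359 ± 9.29 FPKM over the TAX libraries (SD, n = 3 each). Its groups did not overlap, with a log2 fold change of 0.25 (95% interval -0.018 to 0.52, adjusted p = 0.510 from limma). Control replicate 3 was the low one, and without it the log2 fold change of PLAU was 0.11. MMP14, PLAUR and PLAU were the 3 of 7 tested members whose groups did not overlap, all higher, against 17.9% of all tested genes (1799 higher and 413 lower). PLAT, which was under the filter, had 0.237, 0.142 and 0.222 FPKM without TAX and 0.315, 0.215 and 0.150 FPKM with it, and the groups overlapped. With the filter at 0.1 FPKM its log2 fold change was 0.030 (standard error 0.0665, adjusted p = 0.902 from limma).

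Of the inhibitors, none passed the test. TIMP1 measured 48.1, 39.9 and 34.8 FPKM without TAX and 45.2, 52.1 and 45.9 FPKM with TAX, and control replicate 1 lay among the TAX values. Its log2 fold change was 0.23 (95% interval -0.031 to 0.48, adjusted p = 0.538 from limma), and it was 0.35 (unadjusted p = 0.00883) without control replicate 1 and 0.12 without control replicate 3. TIMP2 had 67.7, 67.3 and 58.7 FPKM against 59.4, 60.6 and 62.2 FPKM, with control replicate 3 below all TAX libraries and the other controls above them. The log2 fold change of TIMP2 was -0.084 (95% interval -0.27 to 0.10, adjusted p = 0.754 from limma), and without control replicate 3 it was -0.15 (unadjusted p = 0.0299). SERPINE2 was spread over 7.92 to 10.9 FPKM in the control libraries, and its TAX values of 9.78, 9.94 and 9.88 FPKM lay inside that range. Its log2 fold change was 0.064 (95% interval -0.17 to 0.29, adjusted p = 0.846).

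Matriptase was on the low side after treatment. ST14 measured 3.59, 3.57 and 2.99 FPKM without TAX and 2.73, 3.10 and 2.83 FPKM with TAX, and TAX replicate 2 lay above control replicate 3. The log2 fold change of ST14 was -0.17 (95% interval -0.37 to 0.023, adjusted p = 0.536 from limma), and without control replicate 3 it was -0.24 (unadjusted p = 0.0151). On the log2(FPKM + 1) scale the change of so low a gene is understated. Across the 7 tested members the median log2 fold change was 0.23, beside 0.054 for all tested genes. Of the 7 members, 5 were higher and 2 lower. Over all tested genes, 66.0% had a log2 fold change above 0.0103 and 71.5% above -0.00855, so this count is near that of all genes.

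**Figure D2:**
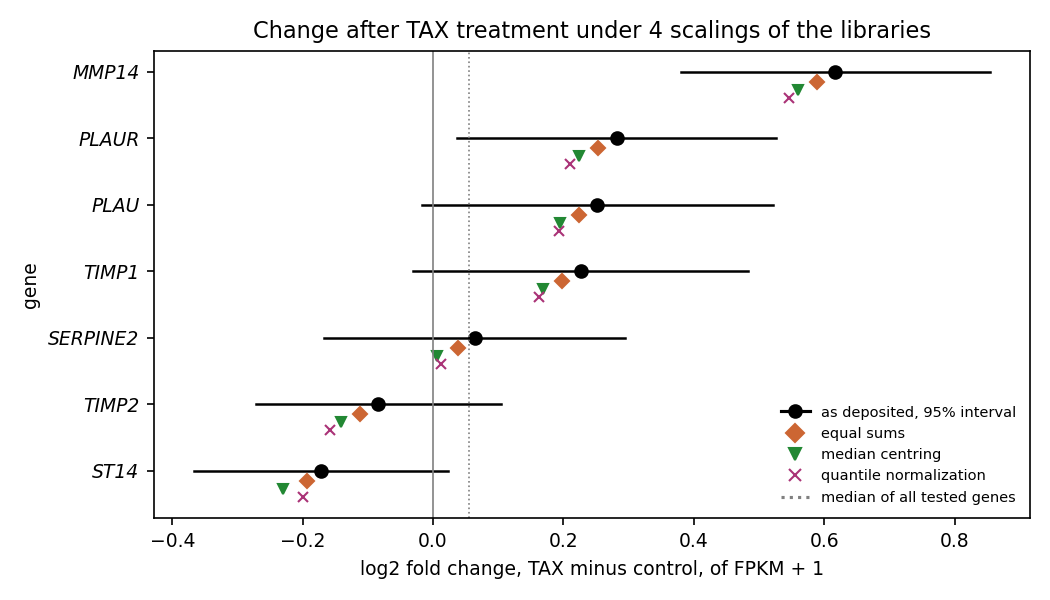
Log2 fold change (TAX minus control, of FPKM + 1) of the 7 tested genes, with the 95% interval of limma for the deposited values and the estimate after 3 other scalings of the libraries; the dotted line is the median of all tested genes, 0.054. MMP14 stands apart from the others at 0.55 to 0.62 under all 4 scalings, and the intervals of PLAU, TIMP1, SERPINE2, TIMP2 and ST14 include 0.

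The library with the lowest sum touched most of these values. Control replicate 3 held the lowest value of 6 of the 7 tested members, ST14 being the exception, and its part in the differences was not tested beyond leaving it out and rescaling. After rescaling all libraries to the same sum, PLAU in control replicate 3 was 266 FPKM and still the lowest. TIMP2 then had 63.4 to 67.1 rescaled FPKM in control and 58.8 to 62.8 in TAX-treated cells, and ST14 had 3.24 to 3.57 and 2.71 to 3.02, both without overlap, as were 19.6% of all tested genes (1643 higher and 774 lower). On that scale 5 of the 7 had an unadjusted p under 0.05, PLAU, PLAUR, MMP14 and TIMP1 higher and ST14 lower, against 12.6% of all tested genes (1030 higher and 523 lower). After quantile normalization or median centring there were 4, with PLAUR and MMP14 higher and TIMP2 and ST14 lower, against 11.8% and 12.1% of all tested genes. MMP14 was the single member with an adjusted p under 0.05 under each of these 3 scalings. The direction of all 7 was the same under them.

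Ratios of 2 genes within a library do not depend on its scaling, and they separated the groups more clearly than most single genes. The ratio of MMP14 to TIMP2 was 0.863, 0.747 and 0.745 without TAX and 1.26, 1.36 and 1.24 with TAX. TIMP2 thus exceeded MMP14 per length in every control library and fell short of it in every TAX library. On the log2 scale the ratio went from -0.35 ± 0.121 to 0.36 ± 0.0745 (SD, n = 3 each), a difference of 0.71. MMP14 to TIMP1 went from 1.21 to 1.26 in control libraries to 1.58 to 1.68 in TAX libraries, a difference of 0.40 on the log2 scale. TIMP1 to TIMP2 was 0.593 to 0.711 in control and 0.738 to 0.860 in TAX libraries, also without overlap.

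The urokinase to receptor ratio did not separate the groups. PLAU to PLAUR was 7.17, 8.09 and 7.22 without TAX and 7.23, 6.90 and 7.79 with TAX. PLAU to SERPINE2 was 30.7 to 34.6 in control and 35.6 to 36.9 in TAX libraries, separate by a narrow margin. Matriptase was compared with its inhibitors HAI-1 (SPINT1) and HAI-2 (SPINT2). ST14 to SPINT2 was 0.0196 to 0.0221 in control and 0.0155 to 0.0172 in TAX libraries, and ST14 to SPINT1 overlapped at 0.175 to 0.200 and 0.172 to 0.184. SPINT2 itself, at 165 ± 15.6 and 175 ± 6.07 FPKM (SD, n = 3 each), and SPINT1, at 17.8 ± 2.78 and 16.2 ± 0.997 FPKM, had adjusted p of 0.765 and 0.717 (limma). These ratios share genes with the values above and are given as descriptions without a test.

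**Figure D3:**
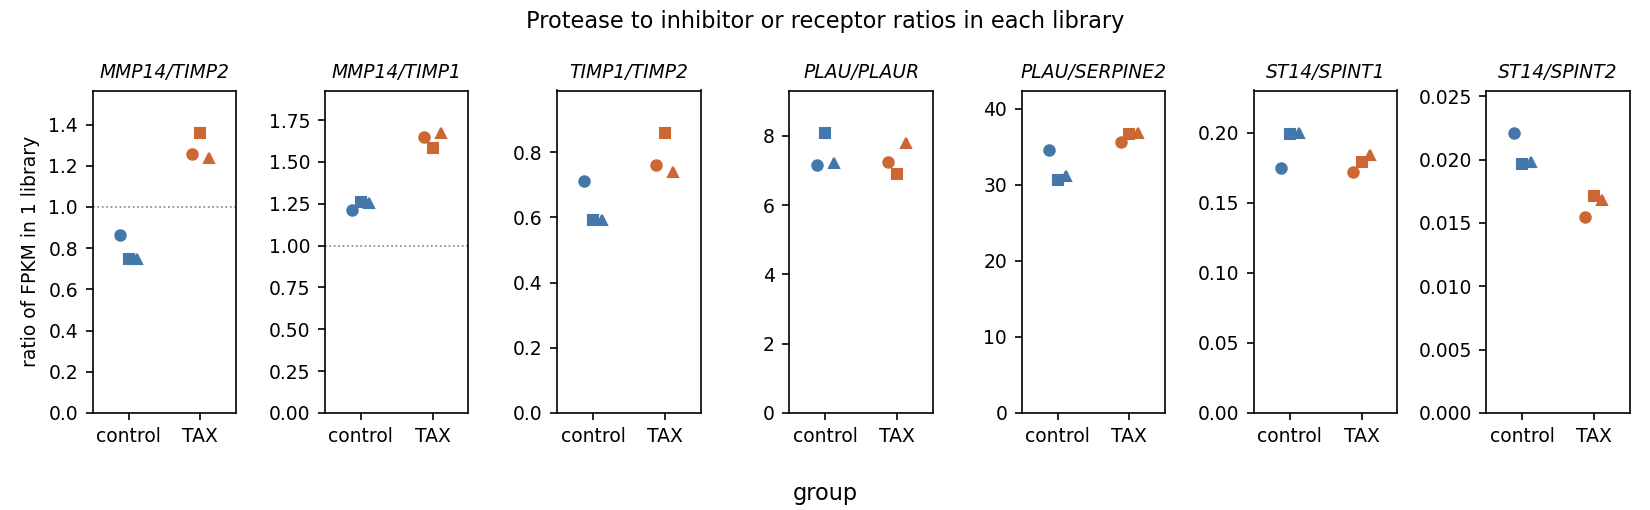
Ratio of the FPKM of 2 genes within each library, control in blue and TAX in orange, with circle, square and triangle for replicates 1, 2 and 3; each vertical axis starts at 0, and the dotted line marks equal FPKM. The groups are separate for MMP14/TIMP2, MMP14/TIMP1, TIMP1/TIMP2, PLAU/SERPINE2 and ST14/SPINT2, and they overlap for PLAU/PLAUR and ST14/SPINT1.

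MMP14 was also the leading transcript of its family. Of the summed FPKM of 20 matrix metalloproteinases, MMP14 held 68.3%, 64.2% and 66.4% without TAX and 76.2%, 78.2% and 78.5% with TAX. The other 19 together had 22.2 to 28.1 FPKM in control and 21.1 to 23.3 FPKM in TAX libraries, which overlapped. MMP2, whose proenzyme MMP14 activates, was listed at 0 in all libraries, and MMP9 had 0.0784 to 0.133 FPKM. A list of 22 other genes held the rest of the family, inhibitors and BSG, a membrane glycoprotein that induces metalloproteinases. Of the 7 tested, 0 passed the adjusted test in limma and 1 had an unadjusted p under 0.05, against 10.1% of all tested genes. That gene was MMP24, another membrane-type enzyme, with 12.9 ± 2.05 and 10.6 ± 0.831 FPKM (log2 fold change -0.25, unadjusted p = 0.0499 and adjusted p = 0.492 from limma). Its unadjusted p was under 0.05 in 6 of 14 alternatives, and without control replicate 2 its log2 fold change was -0.16 (unadjusted p = 0.194). MMP15, also membrane-type, had a log2 fold change of -0.22 (adjusted p = 0.493 from limma). RECK, a membrane-anchored inhibitor of metalloproteinases, had -0.17 (adjusted p = 0.507 from limma) and was below all control values in each TAX library. BSG, chosen for mention after its values were seen, was above all control values in each TAX library (log2 fold change 0.17, adjusted p = 0.591 from limma). They were the 1 lower and 1 higher gene of the 7 tested without overlap, against 17.9% of all tested genes (1799 higher and 413 lower). The median of these 7 genes was -0.15, beside 0.054 for all tested genes.

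Around urokinase, 15 of 24 genes were tested, a list of plasminogen and its receptors, serpins, clearance receptors such as LRP1 and VLDLR, and coagulation genes such as F3 and TFPI. In limma 0 passed the adjusted test, and 2 had an unadjusted p under 0.05, both higher, a share near the 10.1% of all tested genes. F12, the coagulation factor XII, went from 2.14 ± 0.111 to 2.83 ± 0.272 FPKM (SD, n = 3 each, log2 fold change 0.28, adjusted p = 0.269). SERPINB8, an intracellular serpin, went from 13.4 ± 1.19 to 16.5 ± 0.977 FPKM (log2 fold change 0.28, adjusted p = 0.320). PLGRKT, a plasminogen receptor, had a log2 fold change of 0.20 with overlap. ANXA2 and S100A10, which form a plasminogen-binding complex, were abundant, with 829 ± 88.0 and 449 ± 13.9 FPKM in control and 913 ± 69.9 and 486 ± 21.9 FPKM after TAX (adjusted p = 0.684 and 0.680). Plasminogen itself (PLG) was at most 0.0116 FPKM. The median log2 fold change of the 15 genes was 0.13.

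Around matriptase, 8 of 20 genes were tested, with 0 passing the adjusted test in limma and 2 at an unadjusted p under 0.05, against 0.477% and 10.1% of all tested genes. PRSS22, a tryptase, had 3.21, 3.08 and 2.80 FPKM without TAX and 4.33, 4.63 and 3.80 FPKM with TAX (log2 fold change 0.38, standard error 0.0887, adjusted p = 0.137). MET, the receptor of HGF, had 58.9, 55.0 and 50.6 FPKM and 71.1, 65.6 and 73.1 FPKM (log2 fold change 0.35, standard error 0.0875, adjusted p = 0.180). Both were higher in each TAX library than in each control library, with an unadjusted p under 0.05 in all 14 alternatives. HGF, the ligand that matriptase activates, was listed at 0 throughout. EPCAM, a surface protein that matriptase cleaves, had a log2 fold change of 0.14 (adjusted p = 0.570).

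Among 14 tested matrix substrates, 0 passed the adjusted test in limma, 3 were higher and 1 was lower at an unadjusted p under 0.05, against 10.1% of all tested genes (955 higher and 298 lower). LAMB3 and LAMA3 encode chains of laminin-332, a basement membrane protein cut by MMP14. LAMB3 had 133, 148 and 106 FPKM without TAX and 207, 183 and 204 FPKM with TAX, and the groups were separate (log2 fold change 0.63, standard error 0.122, adjusted p = 0.0701). The adjusted p of LAMB3 was 0.0499 with equal sums, 0.0353 with median centring and 0.0406 without control replicate 2, and over 0.05 in the other alternatives. LAMA3 had 21.7 ± 3.15 and 19.0 ± 1.36 FPKM (log2 fold change -0.17, adjusted p = 0.606). COL17A1, a hemidesmosome collagen, had a log2 fold change of 0.35, and COL1A1, the lower one, of -0.29, with adjusted p of 0.181 and 0.197. The median of the 14 was -0.015.

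In the ADAM and ADAMTS families 10 of 18 genes were tested, 0 passed the adjusted test in limma and 2 had an unadjusted p under 0.05, against 10.1% of all tested genes. ADAM8 was higher (15.2 ± 2.22 and 19.3 ± 0.362 FPKM, adjusted p = 0.315) and ADAMTS15 lower (1.65 ± 0.173 and 1.25 ± 0.0472 FPKM, adjusted p = 0.373), each n = 3 per group with SD. ADAM19 had a log2 fold change of 0.20 with an adjusted p of 0.550. Of 18 cathepsins, cystatins and related proteases 14 were tested, again with 0 adjusted calls in limma and 1 unadjusted, a share below that 10.1%. It was CTSO, which had a log2 fold change of -0.21 (adjusted p = 0.471). CST3 and CTSH had log2 fold changes of 0.19 and -0.11. The medians were 0.045 and 0.0064.

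**Figure D4:**
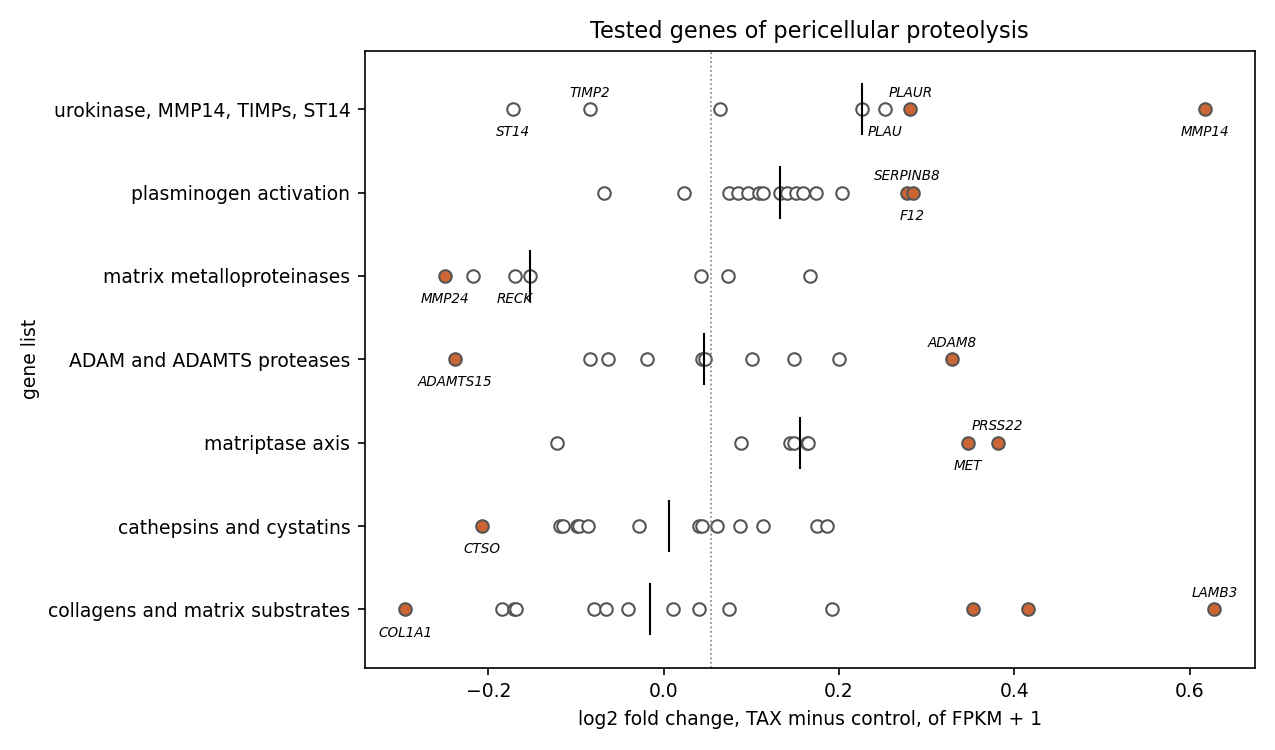
Log2 fold change (TAX minus control, of FPKM + 1) of the tested genes, by list; orange points have an unadjusted p under 0.05 in limma, black lines are list medians and the dotted line is the median of all tested genes, 0.054. MMP14 at 0.62 and LAMB3 at 0.63 lie to the right of all other genes drawn, and the list of matrix metalloproteinases, which does not include MMP14, has a median of -0.15.

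Patterns over the 6 libraries were set beside those of all tested genes with a symbol. The 5 genes most like MMP14 by Pearson's r of log2(FPKM + 1), 0.997 to 0.995, were ELOVL2, ETF1, CAPG, EVA1A and DPP9. The 5 most like PLAU, with r of 0.996 to 0.995, were USP22, TMEM51, VAT1, SCLY and TYRO3. All 10 genes were lowest in control replicate 3, as were MMP14 and PLAU, so the choice by likeness brings this about. Over 11638 genes compared, 644 had an r above 0.9 with MMP14 and 1279 with PLAU. With 6 points that share library and group, these values are descriptions. Among the tested members r was 0.969 for PLAUR with TIMP1, 0.921 for PLAU with PLAUR and for PLAUR with MMP14, and 0.87 for TIMP2 with ST14, while MMP14 with TIMP2 gave -0.22.

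In GENCODE 29 (GRCh38), PLAU lies on chromosome 10 from 73909177 to 73917497, PLAUR on chromosome 19 from 43646095 to 43670547, MMP14 on chromosome 14 from 22836557 to 22849027 and SERPINE2 on chromosome 2 from 223975112 to 224039319. TIMP1 lies on chromosome X from 47582313 to 47586789, TIMP2 on chromosome 17 from 78852977 to 78925387, TIMP3 on chromosome 22 from 32801701 to 32863043 and ST14 on chromosome 11 from 130159562 to 130210376. PLAT lies on chromosome 8 from 42175233 to 42207724. MMP14, SERPINE2, PLAT and ST14 overlap no other annotated gene. TIMP1 lies inside SYN1 and TIMP3 inside SYN3 on the opposite strand, and whether strand was used is not stated, so such reads cannot be told apart. SYN1 had at most 0.0466 FPKM and SYN3 at most 0.117 FPKM. TIMP2 shares its strand with CEP295NL, which had at most 0.178 FPKM, and an annotated antisense gene also overlaps TIMP2. PLAU overlaps C10orf55 on the opposite strand, which has no row under that name.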

How the data were processed

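RNA of DU145 cells, 3 control and 3 TAX cultures, was sequenced from libraries made with an mRNA kit. Per the labels, HISAT2 2.2.0 and StringTie 2.1.2 with GRCh38 were among the tools of the submitters, while annotation and settings are not given in the sources used here. The authors deposited 1 table per library, without pooling, with decimal values taken as FPKM because their sums differ between libraries and because 3130 identifiers carry the MSTRG prefix of StringTie. The unit is not named in the tables. Whole-read steps were looked for among the ratios of 332 low genes between libraries, where no bin 0.1 wide held over 5.72%, so depth is unknown and no counting interval can be given.

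Groups and replicate numbers were taken from the sample titles. log2(FPKM + 1) was fitted for 12359 genes, each reaching 1 FPKM in 3 or more libraries, with limma 3.58.1 in R 4.3.3 (eBayes with trend, no covariate), with Benjamini-Hochberg adjustment over all of them, as the plan set for FPKM. Of the members, PLAT and TIMP3 were under this filter. Intervals are at 95%. With 3 against 3, an exact permutation test of 1 gene cannot give a p below 0.1. The fit was tested on simulated data with known changes.

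The members and lists were chosen with earlier results of these data known. Named were all members, from each other list the genes with an adjusted p under 0.05 or else the 3 with the smallest p, the genes of the ratios, and the 5 genes most like PLAU and MMP14 in pattern. Some genes that this rule or the marker lists take in are not reported here. MMP2, MMP9, PLG, ANXA2, S100A10, HGF, LAMA3, BSG and COL1A1 were named after their values were seen. Alternatives were a pseudocount of 0.1, a filter at 0.1 FPKM or none, quantile normalization, equal sums, median centring, no trend, a replicate block and leaving out each library. Promoters came from RefSeq by symbol, without entries on chromosome 8, and gene positions from GENCODE 29.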

Additional observations from a re-analysis of the deposited data

How the results depend on the processing

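MMP14 kept its direction in all 14 alternatives, with log2 fold changes from 0.52 to 0.72, and an adjusted p under 0.05 in 6 of them (0.0177 to 0.209). The count of members with an adjusted p under 0.05 in limma, 1 in the report, was 0 with a filter at 0.1 FPKM, 0 without a filter and 0 with the replicate block, each with 2 members at an unadjusted p under 0.05, and 0 to 1 when each library was left out. No label says whether the replicate numbers pair the samples. Deviations of same-numbered samples correlated at -0.117, -0.333 and -0.171. These values cannot settle it, since the deviations of the 3 samples in a group sum to 0 and the correlations are tied to each other. With the block, the adjusted p of MMP14 was 0.0618 and the count over all genes 26. Over all genes, 59 calls became 37 with the filter at 0.1 FPKM, 1 without a filter, 95 with quantile normalization, 96 with median centring and 19 to 40 when a library was left out. The weaker filter and no filter test 16698 and 20280 genes in place of 12359. Members with an unadjusted p under 0.05, 2 in the report, numbered 4 with quantile normalization, 5 with equal sums, 4 with median centring and 1 to 4 without each library. The shares of all tested genes were 11.8%, 12.6% and 12.1% for these 3 scalings, and 10.1% in the report. Members without overlap, 3 in the report, numbered 5 with equal sums, 5 with median centring and 3 to 5 without each library. Of all tested genes, 17.9% were without overlap in the report and 19.6% with equal sums. For the other settings no share over all genes was computed, so those counts are not read as a result about the members. A group of 2 libraries also separates more easily than a group of 3. SERPINE2 turned to -0.047 without control replicate 3, and over the libraries left out its log2 fold change ran from -0.047 to 0.163. The cause of the other shifts was not tested. Unknown depth limits what can be said of PLAT and TIMP3.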
